A study of Sus scrofa with 9 samples.

Results

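The genes described here are those of the WNT signalling pathway from ligand to nucleus, examined in mesenchymal stem/stromal cells (MSCs) that were grown from pig fat. Members were taken by gene symbol, as all WNT, FZD, SFRP, DKK, RSPO and DVL genes with a family number, LGR4 to LGR6, the TCF7 genes, and AXIN1, AXIN2, LRP5, LRP6, LEF1, CTNNB1, APC and APC2. This rule used no measured value, though it was chosen with earlier results of these data known. It found 58 genes, all of them present in both deposited tables, which hold 18933 and 18992 genes. By role they were 19 WNT ligands, 4 R-spondins, 8 secreted inhibitors, 10 frizzled receptors, 5 LRP and LGR receptors, 3 dishevelled adaptors, 4 genes of the destruction complex and 5 genes for beta-catenin and its TCF/LEF partners.

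The measurement was 5-hydroxymethylcytosine (5hmC) over exons, obtained by hMeDIP-seq, in which DNA fragments that carry the mark are captured with an antibody and sequenced. For 16 weeks from 3 months of age, domestic pigs ate either standard chow (Lean) or, in the Obese group, food high in fat and fructose, and MSCs were then isolated from subcutaneous abdominal fat. The 9 libraries form 3 groups of 3, which are Lean-MSCs (libraries 7, 8 and 9), untreated Obese-MSCs (1, 2 and 3), and Obese-MSCs given vitamin-C at 50 µg/mL for 48 h in culture (4, 5 and 6). Untreated cells were not free of vitamin-C, because the study's growth medium contains a smaller amount of it. The study adds that it might therefore have underestimated what vitamin-C does. All 9 are primary cultures that had been expanded in vitro to the third passage or beyond, and the labels do not tie a treated culture to an animal. For treated and untreated Obese-MSCs the study describes a further passage after the third. It does not give the passage of the Lean libraries, so the part of passage in the first comparison was not tested. The first table holds Lean and untreated Obese libraries and the second untreated and treated Obese libraries. The untreated Obese libraries are therefore the same in both tables, but they were normalized separately, so that values are compared only within a table.

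WNT proteins are secreted, lipid-modified ligands that bind a frizzled receptor together with LRP5 or LRP6 and act through dishevelled adaptors. In canonical signalling this stops the destruction complex of AXIN, APC and kinases from marking beta-catenin for degradation, and beta-catenin then joins TCF/LEF factors on target genes. In MSCs the pathway is known for restraining adipogenic and favouring osteogenic differentiation. The mark 5hmC is made from 5-methylcytosine by TET enzymes, for which vitamin-C is a cofactor, and its level over a gene is not the expression of that gene.

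Values are normalized counts of reads over all exons of a gene, in the units the authors deposited. Library totals ran from 494566 to 522269 with Lean-MSCs in the table and from 547242 to 593846 with treated cells in it, and the 58 genes together held 0.334% to 0.360% of a library's total. The values are fractional and come without read numbers, so the spread between libraries is the error given throughout (mean ± SD, n = 3 per group). In Lean library 8, low values lay near even steps, such as 0.992 for FZD2, 1.98 for WNT6 and 3.98 for DKK1. Low values may thus rest on a few reads, which was not tested. Values were not divided by exon length, so levels are not compared between genes. The MSC surface antigen genes NT5E, THY1 and ENG carried signal in all libraries, and so did CD34, PTPRC and ITGAM, which MSCs are known to lack as proteins. CD14 was listed at 0 in the 3 Lean libraries and at 0.650, 0.924 and 4.49 in untreated Obese libraries 1, 2 and 3. Of the endothelial and leukocyte marker lists, each of 5 genes, TEK and CD3E met the criteria below as lower in Obese-MSCs. Of all genes, 2.43% did so. The ratio of group means, Obese over Lean, was above 1 for 3 endothelial genes and below 1 for 2. Among the leukocyte genes it was above 1 for 2 and below 1 for 3. The summed signal of the endothelial list was 186 to 264 in the Lean and 227 to 231 in the Obese libraries and that of the leukocyte list 120.3 to 158 and 113 to 137, and the part of such cells in the results was not tested.

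The first comparison asks whether diet-induced obesity goes with different 5hmC over WNT genes. Obese-MSCs had higher 5hmC than Lean-MSCs over the ligand genes WNT10B and WNT7B and lower 5hmC over the dishevelled gene DVL3. These 3 genes met the study's criteria, which ask for an unadjusted p of no more than 0.05 in a two-sided equal-variance test and for group means whose ratio is 1.4 or more, or 0.7 or less. They make up 5.17% of the 58 members, against 4.5% of all genes, both shares being computed here from the deposited values and neither being the study's own count. Counted by direction, 2 members (3.45%) were higher, against 2.07% of all genes, and 1 (1.72%) was lower, against 2.43%. Libraries of both groups did not overlap in 6 members (10.3%), against 11.8% of all genes. With limma on log2(value + 1), 0 of the 46 members tested passed an adjusted p of 0.05, as did 0% of the 15146 genes tested. At an unadjusted limma p of 0.05 the same 3 members were past the threshold, 6.52% of those tested against 6.81% of all genes. The shares were thus near those of the whole table, and the median log2 ratio of group means, Obese over Lean, was 0.051 for the members and 0.012 for all genes.

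DVL3 encodes a dishevelled adaptor, which relays the signal from frizzled receptors inside the cell, and lies on chromosome 13 from 122075851 to 122092975 (Sscrofa11.1, as for all positions here). Its normalized counts were 75.5, 62.5 and 57.5 in Lean libraries 7, 8 and 9 and 32.4, 32.2 and 45.6 in Obese libraries 1, 2 and 3. Every Obese library lay below every Lean library, and Obese library 3 was the closest to them. The means were 65.2 ± 9.29 and 36.7 ± 7.65, a ratio of 0.563. In limma the difference was -0.82 (95% interval -1.33 to -0.31) on the log2 scale, with an adjusted p of 0.668, the smallest among the members. DVL3 no longer met the criteria when Obese library 1 or 2 was left out, although its log2 ratio stayed between -1.01 and -0.71 with any library left out. Of the other dishevelled genes, DVL2 had ratio 1.17 with overlapping groups, and DVL1 had means of 3 or less in both groups, so that no fold is given for it.

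Among the ligands, WNT10B is known as an inhibitor of adipogenesis and a promoter of bone formation. Its values were 17.1, 22.8 and 18.5 in the Lean and 32.0, 29.4 and 27.2 in the Obese libraries. All Obese libraries were above all Lean libraries, and the groups' means were 19.5 ± 3.01 and 29.5 ± 2.40, a ratio of 1.52. The limma difference was 0.58 (95% interval 0.010 to 1.16) with an adjusted p of 0.728. WNT10B met the criteria with each of the 6 libraries left out in turn, and its log2 ratio then lay between 0.51 and 0.73. The gene lies on chromosome 5 from 14997377 to 15013928, and its annotated span shares 3322 bases with WNT1, from 15010607 to 15015007, and it was not examined whether their exons overlap. WNT1 had 6.98, 13.9 and 13.3 in the Lean and 11.5, 15.2 and 14.1 in the Obese libraries, which overlap.

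WNT7B encodes another WNT ligand, on chromosome 5 from 3521412 to 3572322. It had 0.0672, 3.98 and 3.08 normalized counts in the Lean libraries and 6.16, 7.60 and 5.94 in the Obese libraries. The groups did not overlap, but the Lean mean was below 3 normalized counts, the floor under which a mean was treated as low. The means of 2.37 ± 2.05 and 6.57 ± 0.902 give a ratio of 2.77, or 2.19 when the Lean mean is replaced by that floor, and the log2 ratio ran from 0.90 without Lean library 7 to 2.06 without Lean library 8. Its limma difference was 1.43 (95% interval 0.19 to 2.68) with an adjusted p of 0.7005. The criteria were not met without Lean library 9 or without any of the 3 Obese libraries, nor on the log2(value + 1) scale.

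The other ligands overlapped between the groups. WNT5A, a ligand best known for non-canonical signalling, had 309, 294 and 337 in the Lean and 376, 273 and 334 in the Obese libraries. Obese libraries held both the lowest and the highest of these values, and the limma difference was 0.055 (95% interval -0.29 to 0.40). WNT5B, its paralog, had 3.39, 3.97 and 2.07 in the Lean and 3.75, 6.67 and 4.74 in the Obese libraries, a ratio of 1.61 with a limma difference of 0.55 (95% interval -0.50 to 1.596). WNT11, a further non-canonical ligand, had means of 3 or less in both groups. Over all 19 ligands the ratio was above 1 for 12 and below 1 for 7, with a median log2 ratio of 0.066.

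**Figure D1:**
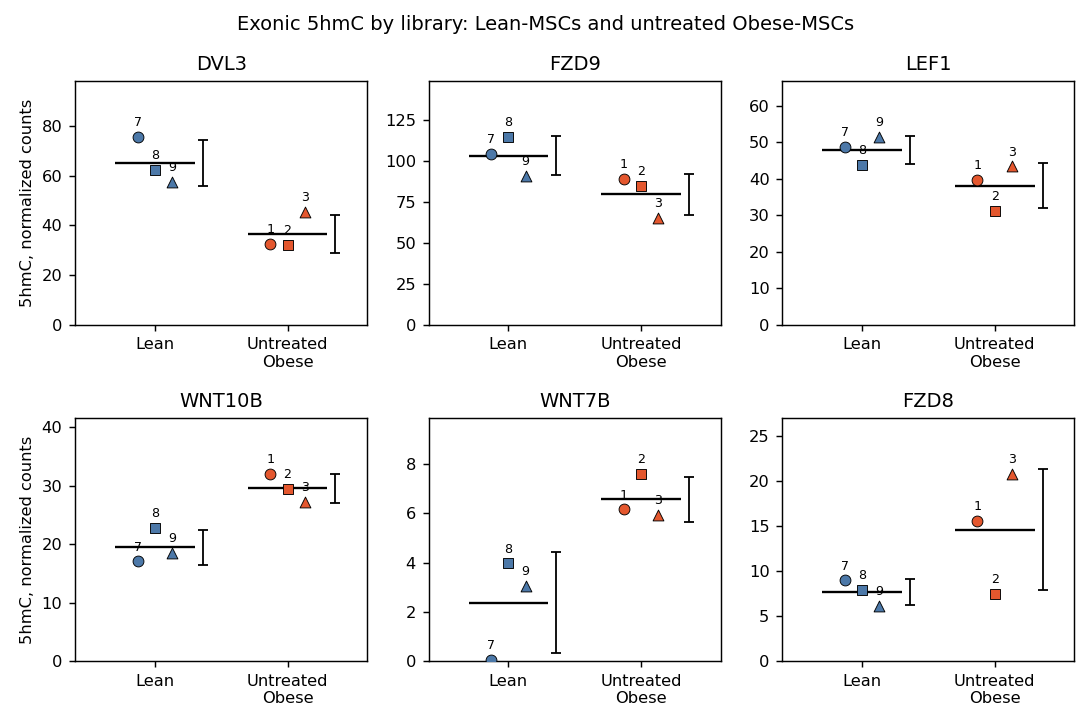
Normalized 5hmC counts (vertical axes, from 0) of 6 WNT pathway genes in the 3 Lean and the 3 untreated Obese libraries, each point labelled with its library number, the horizontal line marking the group mean and the bar at its side the SD. DVL3, FZD9 and LEF1 lie lower and WNT10B and WNT7B higher in every Obese library, while Obese library 2 of FZD8 lies among the Lean libraries.

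R-spondins are secreted proteins that bind LGR receptors and strengthen WNT signalling. None of their 4 genes met the criteria. RSPO4 had 8.99, 8.94 and 5.16 in the Lean and 2.99, 5.72 and 3.58 in the Obese libraries. Obese library 2 was above Lean library 9, so the groups overlap, and the ratio was 0.532 with a limma difference of -0.77 (95% interval -1.71 to 0.16) and an adjusted p of 0.790. It met the criteria only without Lean library 9. RSPO3 had 7.09, 13.9 and 24.6 in the Lean and 23.997, 11.3 and 9.72 in the Obese libraries, and both groups ran from low to high values, with a ratio of 0.988 and a log2 ratio from -0.53 to 0.52 with single libraries left out. RSPO1 and RSPO2 averaged 3 normalized counts or less over the 6 libraries, so no fold is given for them.

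The secreted inhibitors are the SFRP proteins, which bind WNT ligands, and the DKK proteins, which except for DKK3 act on LRP5 and LRP6. Of their 8 genes, 4 had a ratio above 1 and 4 below, and none met the criteria. SFRP1 had 66.8, 107 and 48.4 in the Lean libraries and 39.9, 77.6 and 173 in the Obese libraries. The Obese libraries held the lowest and the highest value, and with a CV within groups (the SD pooled over both groups as a percent of the mean of the 6 libraries) of 61.8% SFRP1 had the largest spread of the 18 members whose mean was over 30. DKK2 had 8.97, 4.96 and 8.21 and 4.64, 7.65 and 1.37 in the Lean and Obese libraries, a ratio of 0.617 with overlapping groups and a limma difference of -0.75 (95% interval -1.81 to 0.31). SFRP5 had 1.17, 0 and 4.08 in the Lean and 4.68, 4.74 and 3.60 in the Obese libraries, where Lean library 9 was above Obese library 3, and it met the criteria as higher only when that Lean library was left out.

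Frizzled genes encode the receptors that bind WNT ligands. FZD9, on chromosome 3 from 10753294 to 10762812, had 104, 114 and 90.4 in the Lean and 88.9, 84.4 and 65.1 in the Obese libraries. All Obese values were below all Lean values, though Lean library 9 and Obese library 1 were close. The means were 103 ± 11.9 and 79.5 ± 12.7, and the ratio of 0.772 is not as low as the criteria ask, with an adjusted p of 0.786 in limma. FZD8 had 8.99, 7.94 and 6.18 in the Lean and 15.6, 7.47 and 20.8 in the Obese libraries. Obese libraries 1 and 3 were above all Lean libraries and Obese library 2 was not. Its ratio was 1.90, with a limma difference of 0.75 (95% interval -0.058 to 1.56) and an adjusted p of 0.764, and FZD8 met the criteria when Obese library 2 was left out. FZD2 had 1.14, 0.992 and 1.03 in the Lean and 1.53, 1.90 and 1.22 in the Obese libraries, groups that do not overlap but lie below 3 normalized counts throughout. FZD6 had means of 8.65 ± 4.34 and 9.58 ± 3.63, which differ by less than their spread.

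Of the coreceptor genes, LRP6 had 132, 152 and 126 in the Lean and 127, 152 and 112 in the Obese libraries, and LRP5 had 44.0, 44.7 and 27.8 and 41.1, 37.9 and 46.9. Groups overlapped for both, and the limma intervals of the differences were -0.48 to 0.33 for LRP6 and -0.41 to 0.68 for LRP5. LGR6, one of the receptors for R-spondins, had means of 7.03 ± 2.00 and 8.53 ± 4.35, with overlapping libraries. None of the 5 LRP and LGR genes met the criteria.

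The 4 genes of the destruction complex, the scaffolds AXIN1 and AXIN2 and the APC genes, all had a ratio above 1, with a median log2 ratio of 0.26, and none met the criteria. The direction held for AXIN1 with each library left out, whereas the log2 ratio turned to -0.072 for APC and -0.22 for AXIN2 without Obese library 1 and to -0.15 for APC2 without Lean library 9. AXIN1 had 11.3, 14.9 and 7.23 in the Lean and 14.7, 16.1 and 16.5 in the Obese libraries. Obese values lay close together, and Lean library 8 was above the lowest of them. The ratio was 1.41 and the limma difference 0.51 (95% interval -0.19 to 1.22), and without Lean library 8 AXIN1 and APC2 met the criteria as higher. AXIN2, itself a widely used target gene of beta-catenin, had 26.01, 28.8 and 22.6 in the Lean and 58.04, 16.9 and 27.4 in the Obese libraries, with Obese library 1 above and Obese library 2 below all other values. APC had means of 55.1 ± 10.2 and 58.4 ± 10.5 and APC2 of 3.46 ± 2.18 and 3.74 ± 0.165, so both differed by less than the SD of the Lean libraries.

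At the end of the pathway, LEF1 had 48.6, 43.7 and 51.3 in the Lean and 39.7, 31.2 and 43.4 in the Obese libraries. Lean library 8 and Obese library 3 were nearly equal and separate the groups, which overlap when the libraries are rescaled by size factors or by quantiles. The means of 47.9 ± 3.88 and 38.1 ± 6.23 give a ratio of 0.796, which does not reach the criteria, and limma gave an adjusted p of 0.854. CTNNB1, the gene of beta-catenin, had 53.99, 45.7 and 29.9 in the Lean and 42.1, 40.8 and 32.0 in the Obese libraries, which overlap. Its limma difference was -0.14 (95% interval -0.70 to 0.43). The TCF genes also overlapped, with ratios of 0.903 for TCF7, 1.18 for TCF7L1 and 0.919 for TCF7L2, the last a repressor or activator of target genes depending on beta-catenin.

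**Figure D2:**
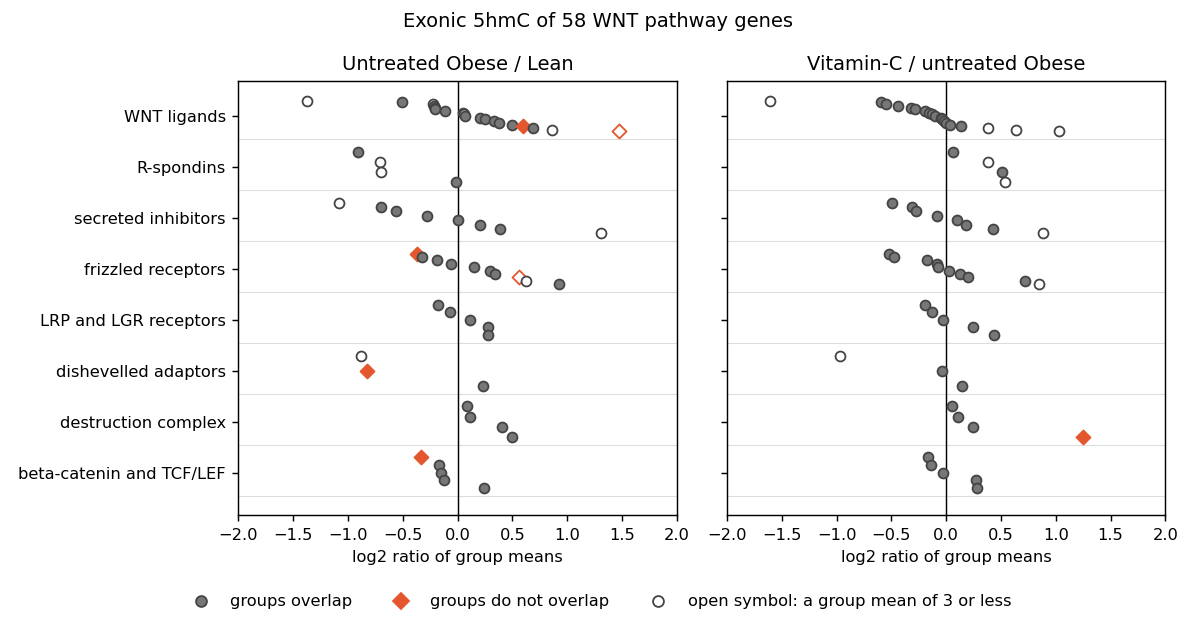
Log2 ratio of group means (horizontal axes) of the 58 genes by role (vertical axis, 1 symbol per gene), for untreated Obese over Lean on the left and vitamin-C over untreated Obese on the right. Diamonds mark genes whose libraries do not overlap between groups, which are 6 on the left and 1 (APC2) on the right, and open symbols a group mean of 3 or less.

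The second comparison asks whether added vitamin-C changes 5hmC over these genes in Obese-MSCs, whose medium already contained some. None of the 58 members met the study's criteria, against 1.92% of all genes (1.11% higher and 0.806% lower). APC2 was the 1 member (1.72%) whose treated libraries did not overlap with the untreated ones, against 5.91% of all genes. With limma 0 of 47 members passed an adjusted p of 0.05, as did 0% of 15194 genes. Only APC2 was past an unadjusted limma p of 0.05, which is 2.13% of the members tested against 0.974% of all genes. The median log2 ratio, treated over untreated, was -0.022 for the members and 0.0084 for all genes. Because the untreated libraries also enter the comparison with Lean-MSCs, the ratios of both comparisons share them and are given only side by side.

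APC2 is a paralog of APC that can take part in beta-catenin degradation, and it lies on chromosome 2 from 77005706 to 77034583. Its values were 4.32, 4.29 and 3.94 in untreated libraries 1, 2 and 3 and 5.04, 11.13 and 13.5 in treated libraries 4, 5 and 6. Treated library 4 was just above the untreated ones, and libraries 5 and 6 were well above. The means were 4.18 ± 0.212 and 9.91 ± 4.38, a ratio of 2.37, with a limma difference of 0.98 (95% interval 0.017 to 1.94) and an adjusted p of 1.00. APC2 met the criteria only when treated library 4 was left out. The remaining genes of the destruction complex overlapped, with ratios of 1.04 for APC, 1.18 for AXIN1 and 1.08 for AXIN2. AXIN1 had 15.1, 15.6 and 31.6 in the treated libraries, of which the last is the only one above the untreated values of 16.4, 18.2 and 18.1.

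DVL3, WNT10B and WNT7B, which met the criteria in the comparison with Lean-MSCs, did not meet them here. Their choice rested in part on the same untreated libraries that enter this comparison. DVL3 had 36.2, 36.5 and 50.1 in the untreated and 49.3, 50.0 and 36.6 in the treated libraries. In each group a pair of libraries agreed closely and the remaining library lay at the level of the other group, so the difference of 0.15 (95% interval -0.43 to 0.72) in limma is small beside its interval. WNT10B had 35.5, 33.2 and 30.0 in the untreated and 21.1, 20.3 and 39.7 in the treated libraries. Treated libraries 4 and 5 were below all untreated libraries and library 6 was above them. The ratio was 0.821, and without library 6 WNT10B and its overlapping neighbour WNT1 met the criteria as lower. WNT7B had 6.88, 8.55 and 6.57 in the untreated and 5.03, 1.77 and 8.19 in the treated libraries, a ratio of 0.681 in which treated library 6 lay within the untreated range.

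Receptor genes overlapped between treated and untreated cells as well. FZD6 had 10.3, 14.9 and 6.82 in the untreated and 13.1, 30.8 and 8.73 in the treated libraries. Its ratio of 1.64 rests on treated library 5, and leaving out single libraries gave log2 ratios from 0.029 to 1.04. FZD8 had 17.3, 8.71 and 22.8 and 13.1, 7.31 and 13.5 in the untreated and treated libraries, a ratio of 0.694 with a limma difference of -0.44 (95% interval -1.28 to 0.40). FZD9 had means of 88.6 ± 14.7 untreated and 102 ± 20.2 treated. LRP5 had 37.2, 54.6 and 74.6 in the treated libraries against 45.8, 42.9 and 51.6, with library 6 the highest, and LRP6 had a ratio of 0.982. LGR6 had 10.4, 13.8 and 4.32 in the untreated and 15.1, 10.1 and 13.4 in the treated libraries, a ratio of 1.35 with overlapping groups.

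Of the secreted factors, WNT5A had 417, 309 and 368 in the untreated and 497, 338 and 362 in the treated libraries, and WNT5B had 4.24, 7.46 and 5.24 and 2.02, 5.61 and 3.56. The ratios were 1.09 and 0.660, and libraries overlapped for both genes. RSPO4 had 3.38, 6.39 and 3.97 in the untreated and 5.03, 3.62 and 10.9 in the treated libraries, where library 6 alone was above the untreated range. Its ratio was 1.42, and without that library the log2 ratio was -0.082. RSPO3 had a ratio of 1.04 and a log2 ratio from -0.82 to 0.55 with single libraries left out, and RSPO1 and RSPO2 again averaged 3 normalized counts or less. SFRP1 had 45.2, 88.0 and 189.6 in the untreated and 59.4, 97.1 and 209 in the treated libraries, a ratio of 1.13 with overlapping groups. Of the nuclear factors, LEF1 and TCF7 had ratios of 1.21 and 1.21, and CTNNB1, TCF7L1 and TCF7L2 of 0.977, 0.910 and 0.889, all with overlapping groups.

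**Figure D3:**
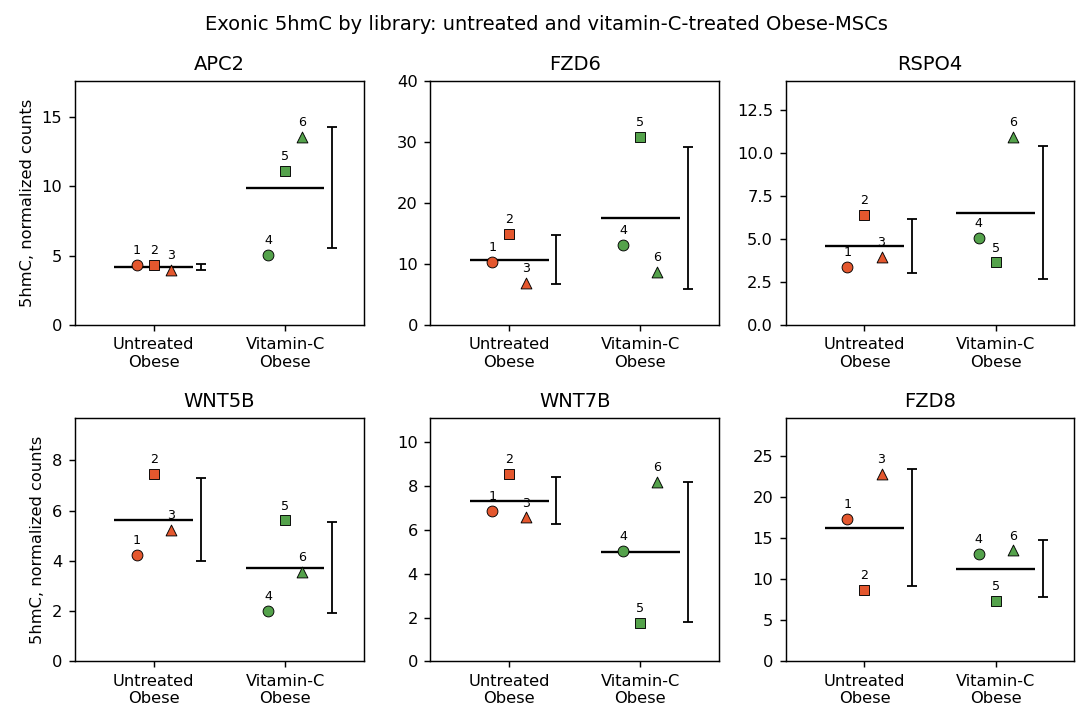
Normalized 5hmC counts (vertical axes, from 0) of 6 WNT pathway genes in the 3 untreated and the 3 vitamin-C-treated Obese libraries, drawn as in the plot of Lean and Obese libraries, with the group mean as a line and the SD as a bar. APC2 is higher in all 3 treated libraries, and the other 5 genes overlap between the groups.

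Several members differed more between libraries of a group than between the groups, with a like pattern in untreated libraries 1, 2 and 3 and treated libraries 4, 5 and 6. SFRP1, with the values given above, was lowest in libraries 1 and 4 and highest in libraries 3 and 6. FZD7, another frizzled receptor, had 38.9, 55.5 and 11.3 in the untreated and 33.2, 68.0 and 14.0 in the treated libraries, and RSPO3 had 26.3, 12.9 and 10.8 and 33.2, 12.9 and 5.9997. These genes were picked after their values were seen. Over the 35 members with a mean above 10, the deviations of log2(value + 1) from the group mean correlated between treated library 4 and untreated library 1 (Pearson's r = 0.63), between 5 and 2 (r = 0.69) and between 6 and 3 (r = 0.68). The other 6 pairs of libraries had r between -0.51 and -0.058. Over the 11257 genes of the table with such a mean, the same 3 pairs had r of 0.35, 0.48 and 0.24 and the others between -0.27 and -0.080. These are descriptions over genes, which are not independent, and the deviations of 3 libraries from their own mean sum to 0, which favours negative values in the other pairs. In the pairs 4 with 1, 5 with 2 and 6 with 3, which the labels do not give and which were chosen after seeing the data, the treated value was higher each time for SFRP1, FZD6, FZD9, APC2, LEF1 and TCF7 and lower each time for WNT2, WNT5B, SFRP5 and FZD8. These are 17.2% of the members, against 22.1% of all genes.

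**Figure D4:**
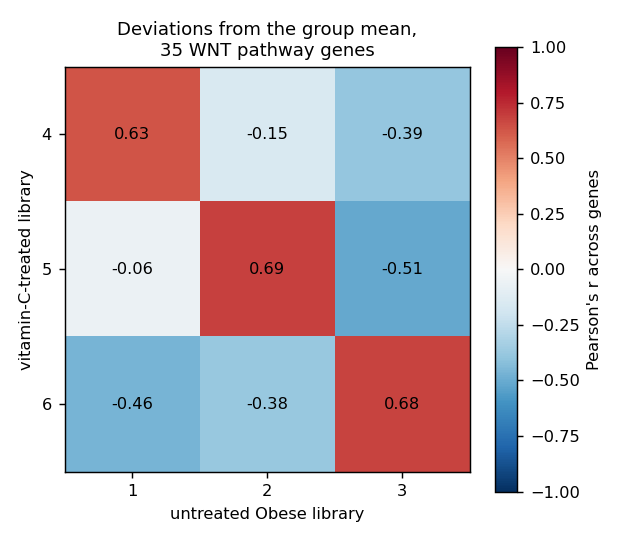
Pearson's r (colour and number) of the deviations from the group mean over 35 WNT pathway genes, for each treated library (rows) with each untreated Obese library (columns). The pairs 4 with 1, 5 with 2 and 6 with 3 have r from 0.63 to 0.69, and the other 6 pairs have r below 0.

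How closely libraries of a group agreed went with the level of the gene. In the first table the median CV within groups was 88.1% for the 9 members with a mean of 3 or less, 43.2% for 16 members above 3 and up to 10, 41.1% for 15 above 10 and up to 30, and 19.1% for 18 above 30. The second table gave medians of 111%, 40.1%, 39.4% and 21.2% for 9, 14, 15 and 20 members in the same order of levels. WNT8B, a ligand gene, had the smallest spread in both tables, with a CV of 4.93% in the first and 7.15% in the second. Its values ran from 14.9 to 17.1 over the Lean and Obese libraries. WNT11, RSPO2 and DVL1 had means of 3 or less in every group of both tables, so no fold is given for them.

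**Figure D5:**
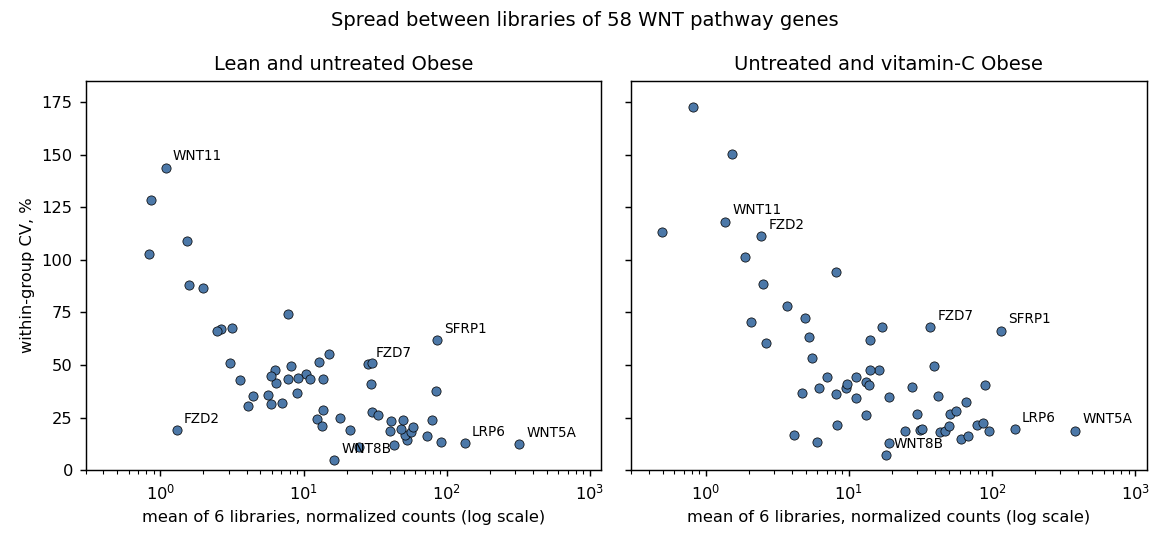
Within-group CV in percent (vertical axis, from 0) against the mean of the 6 libraries of a table in normalized counts (horizontal axis, log scale), 1 point per gene for the 58 genes. The 9 genes with a mean of 3 or less have a median CV of 88.1% on the left and 111% on the right, and SFRP1 has a larger CV than other genes of its level on the left.

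Other genes of the pathway were examined in a list of further regulators and a list of TCF/LEF target genes, of which 91 genes were in the tables. None of them met the study's criteria in either comparison, and with limma 0 of 84 passed an adjusted p of 0.05 in the first and 0 of 83 in the second. At an unadjusted limma p of 0.05, 9 of the 84 were past the threshold in the first, against 1031 of 15146 genes (6.81%). In the second 0 of the 83 were, against 0.974% of all genes. In Obese-MSCs against Lean-MSCs the groups did not overlap for 7 of the 91 genes that were higher and 2 that were lower. Of all 18933 genes, 1079 were higher and 1148 lower in this way, together 11.8%. CCND1, which encodes cyclin D1 and is a target of beta-catenin, had 29.3, 28.8 and 24.7 in the Lean and 53.8, 34.0 and 62.0 in the Obese libraries. All Obese values were above the Lean values, and the ratio was 1.81 with a limma adjusted p of 0.668. KREMEN1, a receptor for DKK proteins, had a ratio of 1.72, the WNT coreceptor RYK 1.58, the small GTPase gene RAC1 1.502, the JNK kinase gene MAPK8 1.49 and the acetyltransferase gene CREBBP 1.31. Named outside the rule for size are BCL9 (ratio 1.26), the remaining higher gene, and the 2 lower genes. The lower ones were EP300, another acetyltransferase gene (ratio 0.772), and the casein kinase gene CSNK1G1 (ratio 0.821). The ratio was above 1 for 65 of the 91 genes, and for 9701 of all 18933 genes, and the median log2 ratio was 0.11, against 0.012 for all genes. With vitamin-C the libraries did not overlap for 2 of the 91 genes that were higher and 1 that was lower, against 1122 of 18992 genes (5.91%). The higher ones were EP300 (ratio 1.23) and CTBP1 (untreated mean 2.09), and the lower one was the kinase gene CSNK2A1 (ratio 0.826). The median log2 ratio of the list was -0.054.

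The members lie on 15 chromosomes, with 9 of them on chromosome 2. Apart from WNT10B and WNT1, 3 pairs of ligand genes are close neighbours. WNT6 and WNT10A are 7844 bases apart on chromosome 15, WNT9A and WNT3A 25631 bases on chromosome 2, and WNT3 and WNT9B 27848 bases on chromosome 12. For none of these 6 genes did the groups separate in either table.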

How the data were processed

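Exonic 5hmC was measured by hMeDIP-seq in 9 libraries of swine MSCs, assigned to 3 groups from the labels. The authors aligned reads with Bowtie2 2.3.3.1 to susScr 11.1, removed duplicates with Picard 1.67, counted reads over exons with HTSeq 0.9.1 and normalized the counts with edgeR 3.28.1. The deposited values are a signal, namely fractional normalized counts per gene symbol, 1 table per comparison. Whole reads were not recovered from these values, and count models were not used. Residues around 0 (645 values, with treated cells) were set to 0.

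Each comparison was made within its table, with 6 libraries. The study's criteria were applied to the deposited values. Separately, limma 3.58.1 (R 4.3.3) modelled log2(value + 1), its variance trending with the mean, for the 80% of genes highest by mean, with Benjamini-Hochberg adjustment over all genes tested and a threshold of 0.05. The pseudocount of 1 understates differences of low genes. A two-sided exact permutation test of single genes has 20 arrangements and cannot go below p = 0.1, so single p-values are not given. Gene spans are from the RefSeq annotation of Sscrofa11.1 (58 of 58 members matched by symbol). The rest used Python 3.11.15, matplotlib 3.10.9, pandas 2.3.3, numpy 2.4.6 and scipy 1.17.1, and the procedure was tested on simulated data.

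The members and gene lists were chosen with earlier results of these data known. Named members are those that met the criteria or passed limma, those with a mean of at least 3 whose groups did not overlap, in each table the 3 highest and 3 lowest ratios among members with both means at least 3, the core genes CTNNB1, APC, AXIN1, AXIN2, LRP5, LRP6, LEF1 and the TCF7 genes, and in each role the highest and lowest Lean mean. Of other pathway genes at most 6 whose groups did not overlap were named, by size of the ratio. Further genes are named as neighbours or examples, as the text says. Alternatives were pseudocounts of 0.5 and 2, no filter or the upper 50%, size factors, quantile normalization, other variance models and thresholds, and each library left out. Depth in reads was not recovered, and a change of total 5hmC would not be visible in these values.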

Additional observations from a re-analysis of the deposited data

How the results depend on the processing

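The number of members that met the study's criteria in Obese-MSCs against Lean-MSCs was 3, and it was 0 with an unadjusted p of 0.01, where 216 of all genes (1.14%) were left. With each library left out it lay between 1 (without Obese library 1, where WNT10B was left) and 5 (without Lean library 8). For vitamin-C the count of 0 became 0 to 2 with a library left out, with WNT16 lower without untreated library 2, SFRP5 lower without untreated library 3, APC2 higher without treated library 4, and WNT1 and WNT10B lower without treated library 6. The cause was not tested, and a left-out library leaves 2 in its group. The median log2(value + 1) difference of the members, Obese minus Lean, was 0.039, and it was -0.042 without Obese library 1. Under the other alternatives for the criteria the count stayed within 1.5 times its value. The limma count stayed at 0 in all settings. The smallest adjusted p of a member ranged from 0.577 (FZD8, without Obese library 2) to 0.961 for obesity and from 0.9996 to 1.00 for vitamin-C. Of 231 alternative log2 ratios of named members per comparison, 223 and 222 moved by less than the spread between replicates. Most alternatives leave out 1 of 3 libraries, which shifts a group mean by less than its SD. These counts were thus largely fixed in advance and do not measure robustness. They include changes of sign, as for SFRP1, Obese over Lean, from 0.38 to -0.33 without Obese library 3. The labels give the groups no shared replicate numbers, so the main tests treat treated and untreated libraries as independent. In the study, third-passage Obese-MSCs went through a further passage with or without added vitamin-C. Cultures of both groups may therefore come from the same animals, and which belong together is not stated. Blocks that pair treated and untreated libraries in any of 6 ways, chosen after seeing the data, left the limma count at 0. The smallest member adjusted p with such blocks was 0.9997 to 1.00. The share of members with 1 direction in all 3 pairs ran from 8.62% to 17.2% over the 6 ways, and that of all genes from 16.1% to 22.1%. Depth in reads was not recovered, so its part in the spread of low genes was not tested.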

Other observations

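In the second table, treated library 6 held the highest of the 6 values for 15 of the 58 members and for 20.7% of all genes. Untreated library 2 also held the highest value for 15 members, and for 16.3% of all genes. Treated library 6 held the lowest value for 11 members as well, as did untreated library 1 and treated library 5. For APC2, AXIN1, LRP5, RSPO4, WNT10B, FZD2 and FZD10 the highest value was in treated library 6, with 2.02, 0 and 7.37 for FZD2 and 1.01, 0.864 and 7.37 for FZD10 in treated libraries 4, 5 and 6. These genes were named after their values were seen. Leaving out treated library 6 gave log2 ratios, treated over untreated, of -0.19 for AXIN1 and -0.67 for WNT10B, against 0.24 and -0.28 with all libraries.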
